A study of Mus musculus with 2 samples.

Results

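Accessible chromatin was described at 5 genes of purine salvage and of deoxynucleoside supply, Ada, Adk, Pnp, Dck and Samhd1, out of 21938 protein-coding genes of the GENCODE M21 annotation. The genes were chosen by name for their roles, with earlier results of these data known. Every DNase I peak and every footprint that touched a gene body, or the 20 kb on each side of it, was taken in each library. The tissue was thymus of adult female B6CASTF1/J mice, a cross of B6 and CAST, at an age of 18 to 20 months, and DNase-seq was run on it in 2 libraries that form 1 group. DNase-seq maps where the enzyme DNase I can cut chromatin. The libraries are labelled biological replicates 1 and 2. They have biosample records of their own but 1 donor record between them. No label says whether they are different animals, so their spread may reflect technical steps alone. There was no treatment and no second age, sex or tissue to compare with.

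Purine salvage rebuilds nucleotides from nucleosides and bases that are set free when RNA and DNA are broken down. Adenosine deaminase, the product of Ada, turns adenosine and deoxyadenosine into inosine and deoxyinosine, and purine nucleoside phosphorylase, the product of Pnp, splits those and the guanosine forms into bases. Adenosine kinase, the product of Adk, instead returns adenosine to AMP. Deoxycytidine kinase, the product of Dck, phosphorylates deoxycytidine, deoxyadenosine and deoxyguanosine, and SAMHD1 breaks deoxynucleoside triphosphates down again. The thymus is known as a tissue with high adenosine deaminase activity. Inherited loss of ADA or PNP in humans depletes T cells, with a build-up of deoxyadenosine or deoxyguanosine nucleotides.

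Each library came with a shorter and a longer list of peaks, and the shorter is meant unless the longer is named. It held 50648 peaks in replicate 1 and 49872 in replicate 2, with median signals of 1.66 and 1.43 in the deposited units, whose scale is not stated. Sequencing depth is unknown. Promoters, meaning the 1 kb on each side of a start site, carried a peak in both libraries at 11 of 12 marker genes of T cells and thymocytes, at 2 of 6 of thymic epithelium, at 1 of 6 of B cells, and at 0 of 6 myeloid, 0 of 4 adipocyte and 0 of 4 hepatocyte markers. Cd4 and the B cell markers Ms4a1 and Pax5 had a promoter peak in replicate 2 alone, and the myeloid marker Itgam in replicate 1 alone. In the longer lists the counts were 12 of 12 for T cells and thymocytes and 2 of 6 for thymic epithelium. They were 3 of 6 for B cells, 2 of 6 for myeloid cells, 0 of 4 for adipocytes and 0 of 4 for hepatocytes. Of the thymic epithelium markers, Aire (4.60 in replicate 1 and 2.92 in replicate 2) and Epcam (1.64 and 1.14) were open, while Foxn1 and Psmb11, which define that epithelium, had no promoter peak in either list. In such bulk tissue, more cells of a type and more accessible chromatin per cell cannot be told apart.

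All 5 genes had an open promoter in both libraries, but their signals spanned a wide range, highest at Dck and lowest at Ada. The share of all protein-coding genes with a promoter peak in both libraries was 53.6%. In the longer lists the counts were 5 of 5 for the salvage genes and 58.1% for all genes. Bases with a deposited q-value of at most 0.001 lay within 1 kb of a start of 5 of 5 salvage genes in both libraries, against 54.2% of all genes. With 5 genes and such a background, the count alone does not set the group apart.

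The promoter signal, that of the strongest promoter peak in a library, was 18.1 in replicate 1 and 20.1 in replicate 2 at Dck (mean 19.1 ± 1.39, SD, n = 2). Adk had 8.01 and 5.32 (6.66 ± 1.90), and Pnp had 4.42 and 4.997 (4.71 ± 0.407). Samhd1 had 2.41 and 2.91 (2.66 ± 0.355), and Ada had 2.19 and 1.30 (1.75 ± 0.632). Across all genes with a promoter peak the median was 5.70 in replicate 1 and 5.09 in replicate 2, with middle ranges, from the lower to the upper quartile, of 2.82 to 9.45 and 2.47 to 8.94. Dck thus stood at percentiles 97.9 and 98.3 of open promoters in replicates 1 and 2, Adk at 66.5 and 52.0, Pnp at 39.3 and 49.4, Samhd1 at 21.2 and 29.8, and Ada at 19.2 and 12.4. Ada lay below the lower quartile in both libraries and Samhd1 in replicate 1.

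The order of the 5 signals was the same in both libraries, but not every step in it was wider than the spread. Dck exceeded Adk by 12.5 on average, where the larger SD of the pair was 1.90. Adk exceeded Pnp by 1.95, about as much as the SD of 1.90 at Adk, with gaps of 3.59 in replicate 1 and 0.32 in replicate 2. Pnp exceeded Samhd1 by 2.05, with a larger SD of 0.407. Samhd1 exceeded Ada by 0.913, with a larger SD of 0.632 and gaps of 0.215 and 1.61. These are SDs over 2 libraries, and no test was run.

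**Figure D1:**
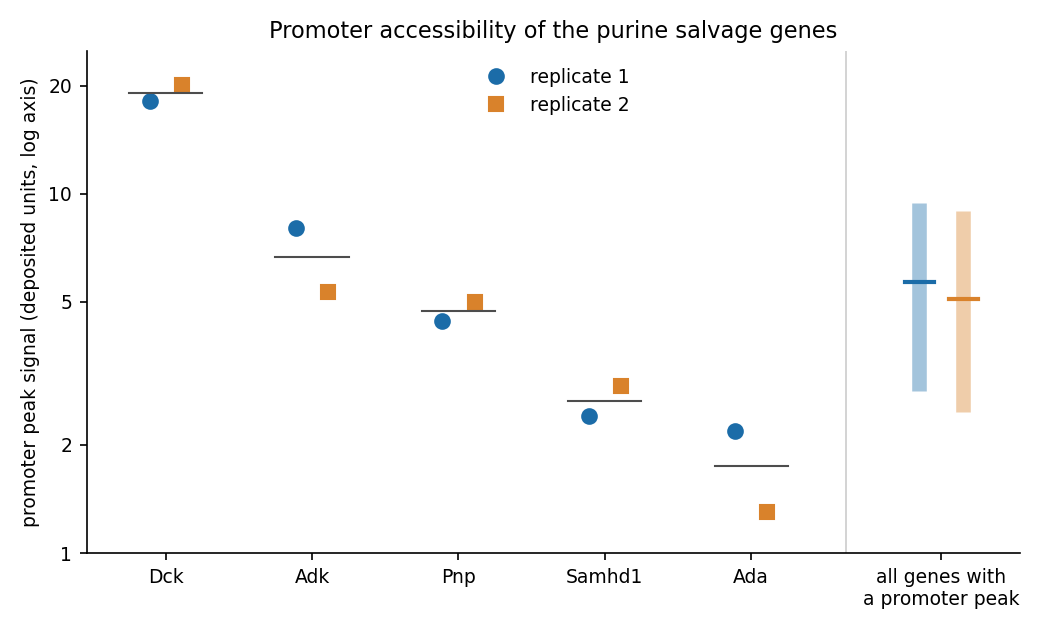
Promoter peak signal in deposited units on a log axis for each salvage gene in replicate 1 (circles) and replicate 2 (squares), with the mean as a line, beside the median (line) and quartiles (bar) of all genes with a promoter peak in that library. Dck lies above both bars at 18.1 and 20.1, and Ada lies below both at 2.19 and 1.30.

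Ada was the only one of the 5 genes with a peak in its gene body, over 1 kb from any start site, that was stronger than its promoter peak. Ada spans chr2:163726584-163750239 on the minus strand of GRCm38 (mm10), 23.7 kb with 12 exons and 1 start site. Its promoter held peaks at chr2:163750101-163750440 (2.19) and chr2:163749667-163750080 (1.41) in replicate 1, the second over the end of exon 1 and the start of intron 1. Replicate 2 held 1 narrower promoter peak at chr2:163750189-163750280 (1.30), with the wider stretch only in its longer list. The lowest q-value in the promoter was 4.05e-12 in replicate 1 and 0.000219 in replicate 2, and 819 and 292 of its 2001 bases had a q-value of at most 0.001. The Ada promoter was thus called open in both libraries, more weakly in replicate 2.

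The stronger Ada peak lay in intron 1, 4.84 kb downstream of the start site, at chr2:163745241-163745560 in replicate 1 and chr2:163745281-163745540 in replicate 2. Its signal was 3.70 in replicate 1 and 5.34 in replicate 2 (4.52 ± 1.15), and its lowest q-values were 1.43e-25 and 1.3e-26. The intron peak exceeded the strongest promoter peak in both libraries, by 0.76 and 2.04 on the log2 scale (mean 1.40 ± 0.907, SD, n = 2). In replicate 1 the margin was almost gone (0.04) when both promoter peaks were summed, and in replicate 2, with its single promoter peak, it stayed at 2.04. Among the 11753 genes with a promoter peak in both libraries, 5.83% had a peak in the gene body, over 1 kb from any start site, that was stronger than the promoter peak in both. The same ratio was -1.11 and -1.18 at Samhd1, -2.76 and -2.71 at Dck and -2.65 and -3.12 at Adk, and Pnp had no such peak. This comparison was chosen after the values were seen.

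The letters of the promoter and of the intron peak are given because the comparison above sets these 2 sites against each other. Both are 5′ to 3′ on the minus strand of GRCm38, the promoter at chr2:163750210-163750440, cut 30 bases into exon 1, as called in replicate 1, and the intron peak at chr2:163745281-163745540, as called in replicate 2. Capitals mark bases that lie in a footprint, a short stretch protected from the enzyme, in both libraries.
Ada promoter: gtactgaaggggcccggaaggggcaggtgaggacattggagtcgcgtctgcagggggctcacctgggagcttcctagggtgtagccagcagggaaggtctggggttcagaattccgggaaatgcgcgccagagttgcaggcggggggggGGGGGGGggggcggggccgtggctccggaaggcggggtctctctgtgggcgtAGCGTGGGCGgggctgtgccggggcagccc
Ada intron 1: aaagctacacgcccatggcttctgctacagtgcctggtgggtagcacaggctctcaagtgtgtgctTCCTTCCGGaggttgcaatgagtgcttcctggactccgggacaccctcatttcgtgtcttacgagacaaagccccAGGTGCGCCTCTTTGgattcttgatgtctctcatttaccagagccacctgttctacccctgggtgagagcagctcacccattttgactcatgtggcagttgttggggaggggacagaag

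The 2 Ada sites differed in base make-up. The promoter peak of replicate 1 was 69.1% G and C with 28 CpG dinucleotides, an observed over expected ratio of 0.763. The intron peak of replicate 2 was 54.6% G and C with 6 CpG and a ratio of 0.309. In the promoter, the SP and KLF consensus GGGCGG touched a footprint of both libraries 5 bases past the start. Among all peaks cut to the same 340 bp, 36.6% held that consensus. The promoter peak of replicate 1 also held the E-box CAGGTG 2 times, 1 of them read as CACCTG. The copy read as CAGGTG touched a footprint in replicate 1 alone, and the other touched none. Of peaks of that length, 31.7% held this E-box. The ETS consensus CCGGAAG occurred 188 and 28 bases upstream of the start, each touching a footprint in replicate 1 alone (21.1% of peaks of that length held an ETS consensus).

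In the intron peak the ETS consensus, read as CTTCCGG, touched a footprint in both libraries, and 20% of peaks of replicate 2 cut to the same 260 bp held an ETS consensus. The E-box CAGGTG also touched a footprint in both (28% of peaks), and a second copy, read as CACCTG, touched none. A MYB consensus (45.4% of peaks) touched a footprint in replicate 2, and an AP-1 consensus TGACTCA (6.21%) touched none. ETS, MYB and E-box proteins are factor families active in thymocytes. A match to a consensus describes letters and does not show that a factor was bound. The site held 3 footprints in replicate 1 and 4 in replicate 2, and 2 of the 3 overlapped one of replicate 2.

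Intron 1 held 2 more peaks. A peak centred 5.26 kb downstream of the start had 1.75 in replicate 1 and 1.94 in replicate 2 (1.85 ± 0.134). Another at 6.06 kb had 1.14 in replicate 1 and appeared only in the longer list of replicate 2, with 0.926. Beyond exon 1, no exon of Ada and none of its other introns held a peak in either list.

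Beyond the end of Ada, introns of the neighbour Pkig, a gene of an inhibitor of protein kinase A, held the remaining peaks of the window. The strongest by mean was 30.7 kb downstream of the Ada start, with 4.42 in replicate 1 and 2.90 in replicate 2 (3.66 ± 1.08). A second, at 37.6 kb, had 2.36 and 3.45 (2.91 ± 0.770) and was the stronger of the 2 in replicate 2. Both were found in each library. A further 5 peaks of 1.03 to 1.42 were in the shorter list of replicate 2 alone, and 3 of these 5 had a partner in the longer list of replicate 1. Whether any of these sites acts on Ada was not tested.

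The site at 30.7 kb is shown because its letters in the protected stretch hold a core of the CTCF consensus, AGATGGCGC, which was looked for only after the letters were seen. It lies at chr2:163719401-163719580 as called in replicate 1, given on the minus strand with capitals as above.
Ada downstream: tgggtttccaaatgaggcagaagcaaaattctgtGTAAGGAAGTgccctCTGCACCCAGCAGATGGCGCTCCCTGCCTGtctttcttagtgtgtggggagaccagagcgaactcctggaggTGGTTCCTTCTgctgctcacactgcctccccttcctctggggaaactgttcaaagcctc
The core touched a footprint in both libraries, and 0.936% of peaks of replicate 1 cut to 180 bp held it. CTCF is an insulator protein that shapes chromatin loops. The ETS consensus AGGAAGT lay just upstream and also touched a footprint in both libraries, and 15.1% of peaks of that length held an ETS consensus.

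Counted over the window, Ada had 7 peaks in replicate 1 and 10 in replicate 2, or 11.0 and 15.7 per 100 kb. The median of all protein-coding genes was 3.94 and 3.53 per 100 kb, which placed Ada at percentiles 85.7 and 93.0. Footprints numbered 33 and 47 in the same window, at percentiles 84.7 and 90.4 by density. Of the peaks, 5 of 7 in replicate 1 and 5 of 10 in replicate 2 overlapped one of the other library. Of all peaks, 79.4% in replicate 1 and 80.7% in replicate 2 did so. Without the 20 kb flanks, the mean of the 2 libraries was 4 peaks, against 8.5 with them.

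**Figure D2:**
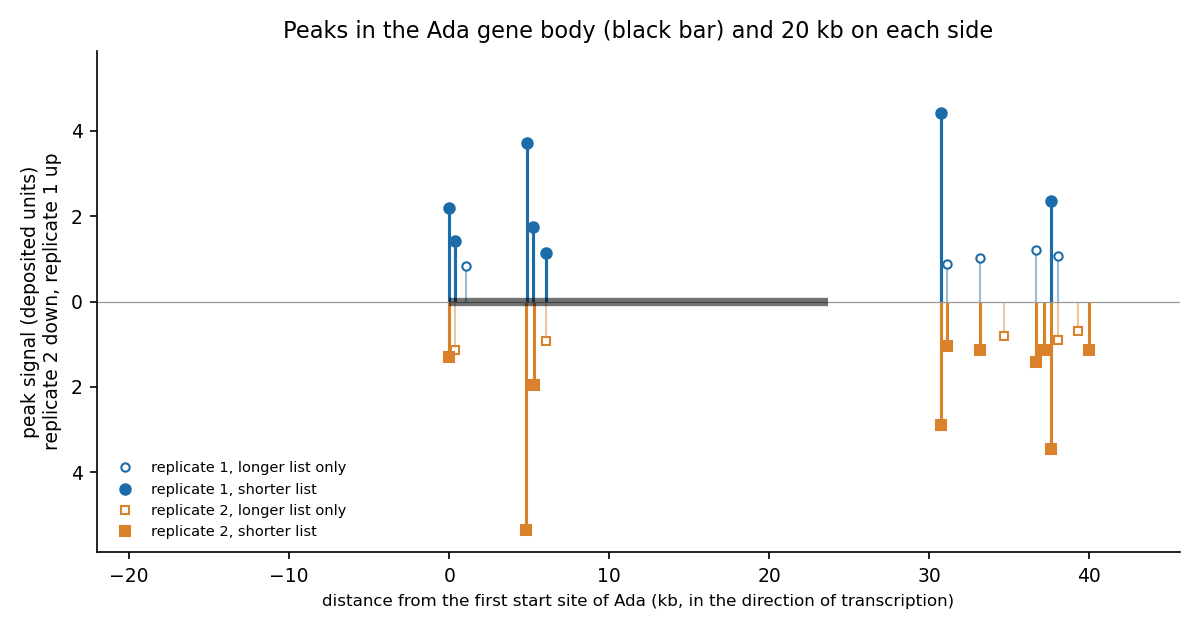
Peak signal in deposited units, replicate 1 upward and replicate 2 downward, against distance from the Ada start site in kb, with the gene body as a black bar and open symbols for peaks of the longer list only. The intron 1 peak at 4.84 kb (3.70 and 5.34) stands above the promoter peaks (2.19 and 1.30), 2 weaker peaks lie just beyond it in intron 1, and no peak lies in the gene body past intron 1.

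Adk, the kinase that competes with adenosine deaminase for adenosine, was open at both of its start sites. The gene spans chr14:21052574-21448569 on the plus strand, 396 kb, with starts at 21052574 and 21076152. At the upstream start 2 peaks lay side by side in each library. One, at chr14:21052381-21052560 in replicate 1 and chr14:21052501-21052720 in replicate 2, had 8.01 and 5.32. The other, centred 353 bases upstream of the start, had 6.02 and 5.17 (5.60 ± 0.601). The strongest Adk peak was therefore not called over quite the same bases in the 2 libraries. Both peaks also lie within 1 kb of a start of Ap3m1, a gene transcribed the other way that encodes a subunit of an adaptor complex for vesicle transport, so their signal cannot be given to Adk alone.

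The downstream start of Adk had its own peak with 4.04 in replicate 1 and 3.01 in replicate 2 (3.52 ± 0.723), and a weaker one beside it with 0.761 and 0.548. No other gene is named for those 2 peaks. Within the downstream promoter site 12 footprints were found in replicate 1 and 10 in replicate 2, and 10 of the 12 overlapped one of replicate 2. The stretch around the upstream start is shown because it holds several GC-rich letters that were protected in both libraries. It runs over chr14:21052501-21052603 on the plus strand, as called in replicate 2 and cut 30 bases into exon 1, with capitals as above.
Adk promoter: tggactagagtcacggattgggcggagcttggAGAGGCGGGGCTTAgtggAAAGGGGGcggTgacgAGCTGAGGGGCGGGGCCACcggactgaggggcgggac
The whole peak as called in replicate 2 held the SP and KLF consensus GGGCGG 4 times. Of these copies 2, at 18 bases upstream of the start and at the start itself, touched a footprint in both libraries. Among all peaks of replicate 2 cut to the same 220 bp, 31.2% held GGGCGG. Further into the peak, beyond the stretch shown, the YY1 consensus AAGATGGC touched a footprint in both libraries 62 bases past the start, and 2.13% of such peaks held it. It shares a base with an E-box CAGCTG. The peak as called in replicate 1 held GGGCGG 1 time, 54 bases upstream of the start, touching a footprint of replicate 2 alone. That call held neither the YY1 consensus nor this E-box.

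Over its long gene body, away from its promoters, Adk held weak peaks only. In intron 3, a peak 84.5 kb from the start had 1.28 in replicate 1 and 0.613 in replicate 2 (0.946 ± 0.471). Peaks in intron 4 (0.412 and 0.463) and intron 6 (0.662 and 0.6001) were weaker but found in both libraries. Another 2 peaks of intron 3, with 0.501 and 0.868, were in the shorter list of replicate 1 alone and in the longer list of replicate 2. Upstream, in introns of Ap3m1, a peak with 1.23 and 0.678 was found in both libraries and one with 1.12 in replicate 1 alone. In all, 11 peaks in replicate 1 and 8 in replicate 2 gave 2.52 and 1.83 per 100 kb, at percentiles 40.3 and 35.5 of all genes.

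Pnp was open at its own promoter and had far stronger neighbours. Its basic transcripts start at 50944302 and 50944506 on the plus strand of chromosome 14, while the gene record itself begins at 50931082. The promoter peak had the same ends in both libraries, chr14:50944381-50944640, with 4.42 in replicate 1 and 4.997 in replicate 2. The peak also lies within 1 kb of a start of Gm49342, an annotated gene whose exon overlaps exon 1 of Pnp. The lowest q-values were 2.88e-24 and 3.58e-69.

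The letters around a TATA consensus in this peak are shown because they stood 30 bases upstream of the downstream start of Pnp and touched a footprint in both libraries. TATA elements position the start of transcription. The 30 bases lie at chr14:50944464-50944493, plus strand, in the untranslated part of exon 1 of the longer transcript, with capitals as above.
Pnp TATA site: tggggctgaggatatAAAGGCCGGCCCAGC
The consensus TATAAA was held by 6.17% of peaks of replicate 1 and 5.55% of peaks of replicate 2 cut to 260 bp. An AP-1 consensus TGACTCA 13 bases past the same start (5.94% and 6.21%) touched no footprint. Among the strongest promoter peaks of the 5 genes, the TATA consensus occurred at Pnp alone.

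The other peaks in the Pnp window belonged to promoters of other genes. The strongest, with 15.3 in replicate 1 and 18.3 in replicate 2 (16.8 ± 2.09), lay at the start of Pip4p1, a gene of a phosphatase for phosphoinositides, and touched the upstream end of the Pnp gene record. A weaker Pip4p1 peak beside it had 3.22 and 2.71. The shared promoter of Apex1, which encodes a DNA repair endonuclease, and Osgep had 9.08 and 9.35, and a peak near it with 0.411 was listed in replicate 2 alone. If the start of the gene record were used in place of the basic starts, the mean Pnp promoter signal would be 16.8, that of the Pip4p1 peak. Pnp2, the neighbouring paralogue of Pnp, had a promoter peak 12.1 kb downstream with 1.71 in replicate 1 and 1.42 in replicate 2 (1.56 ± 0.208). Pnp and Pnp2 are near copies, and how reads that fit both were placed is not given in the sources used here, so these values are uncertain. In all, the Pnp window held 5 peaks in replicate 1 and 6 in replicate 2.

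Dck had the strongest promoter of the 5 genes. It spans chr5:88764996-88783281 on the plus strand, 18.3 kb with 7 exons and 1 start site. The promoter peak lay at chr5:88764901-88765160 in replicate 1 and chr5:88764921-88765160 in replicate 2, with 18.1 and 20.1, above 99.5% and 99.6% of all peaks of the 2 libraries. The lowest q-values were 3.29e-118 and 1.08e-182. It held 6 footprints in replicate 1 and 7 in replicate 2, and all 6 overlapped one of replicate 2. At the sites of the strongest promoter peaks of Adk, Samhd1, Pnp and Ada, 5 of 7, 3 of 4, 2 of 4 and 4 of 10 did so. The Ada site joins 2 peaks of replicate 1 and is wider, and the share over all peaks was not worked out. The median peak of each library held 3 footprints.

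A stretch over the Dck start, chr5:88764901-88765025, and a site further into the untranslated part of exon 1, chr5:88765131-88765160, both on the plus strand with capitals as above, show the protected letters.
Dck promoter: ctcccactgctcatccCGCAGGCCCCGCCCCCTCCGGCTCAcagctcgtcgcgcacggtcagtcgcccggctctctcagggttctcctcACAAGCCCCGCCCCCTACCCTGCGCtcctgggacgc
Dck E2F site: cctgCGCCTCCGCGCGCCAAAgtcaaagtg
The whole peak held the SP and KLF consensus 4 times, 71 bases upstream of the start and 1, 35 and 106 bases past it, and every copy touched a footprint in both libraries. Of peaks of replicate 1 cut to 260 bp, 33.3% held it. The E2F consensus, read as GCGCCAAA, began 148 bases past the start, touched a footprint in both libraries and was held by 1.53% of such peaks in replicate 1 and 1.39% in replicate 2 at 240 bp. E2F factors are known for driving genes of DNA synthesis. A RUNX consensus (7.29% of peaks) and an NF-Y consensus (10.5%) touched no footprint.

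The only other Dck peak of the shorter lists was in intron 1, centred 1.32 kb past the start, with 2.68 in replicate 1 and 3.08 in replicate 2 (2.88 ± 0.279). It was stronger than the promoter peaks of Ada in each library. The site is shown because it holds letters of lymphoid factor families. It lies at chr5:88766221-88766440, plus strand, as called in replicate 2, with capitals as above.
Dck intron 1: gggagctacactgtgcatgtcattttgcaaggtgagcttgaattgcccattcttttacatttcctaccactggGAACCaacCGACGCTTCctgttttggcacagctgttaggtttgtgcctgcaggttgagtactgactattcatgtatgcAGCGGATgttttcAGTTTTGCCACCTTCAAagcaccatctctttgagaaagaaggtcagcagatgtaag
The TCF7 and LEF1 consensus, read as TTCAAAG, touched a footprint in both libraries and was held by 6.99% and 6.66% of peaks of the same length. So did an Ikaros consensus TGGGAA (19.4% and 17.6%) and 1 of 2 MYB consensus matches (42.6% and 40.4%). TCF7 and Ikaros are factors of early T cell development. In its window Dck had 2 peaks in each library, 3.43 per 100 kb, near the median of all genes of 3.94 in replicate 1 and 3.53 in replicate 2.

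Samhd1, which encodes the enzyme opposed to the kinases, had a modest promoter peak. The gene spans chr2:157097533-157135265 on the minus strand, 37.7 kb with 16 exons and 3 start sites close together. The peak at chr2:157135081-157135320 in replicate 1 and chr2:157135081-157135220 in replicate 2 had 2.41 and 2.91. A second promoter peak had 1.04 and 0.874 (0.956 ± 0.116), centred 709 bases past the most upstream start in replicate 1 and 616 in replicate 2. The bases around the most upstream start are shown because they hold a stretch protected in both libraries. They lie at chr2:157135236-157135320, minus strand, within the peak as called in replicate 1 and cut 30 bases into exon 1, with capitals as above. The narrower peak of replicate 2 does not reach this stretch.
Samhd1 promoter: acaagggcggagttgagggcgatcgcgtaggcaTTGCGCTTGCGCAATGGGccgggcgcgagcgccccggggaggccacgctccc
The SP and KLF consensus 51 bases upstream of the nearest start, the only consensus match in that peak, touched no footprint. By the RefSeq promoter table (GRCm38.p6), Samhd1 had the highest CpG ratio of the 5 genes, 0.907 in 300 bases, against 0.644 to 0.786 for the 5 promoters of the others and a median of 0.384 over 32851 promoters.

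Within the gene body of Samhd1, 1 peak at the border of exon 5 and intron 4 had 1.12 in replicate 1 and 1.29 in replicate 2 (1.20 ± 0.118). The other peaks of the window lay beyond the gene. The promoter of Soga1 had 1.23 in replicate 1 and 0.835 in replicate 2, with a second peak of 0.796 in replicate 2. A peak of 0.743 in an intron of Tldc2 and one of 0.608 in an intron of Soga1 were in the shorter list of replicate 1 alone. The window held 6 peaks in replicate 1 and 5 in replicate 2.

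**Figure D3:**
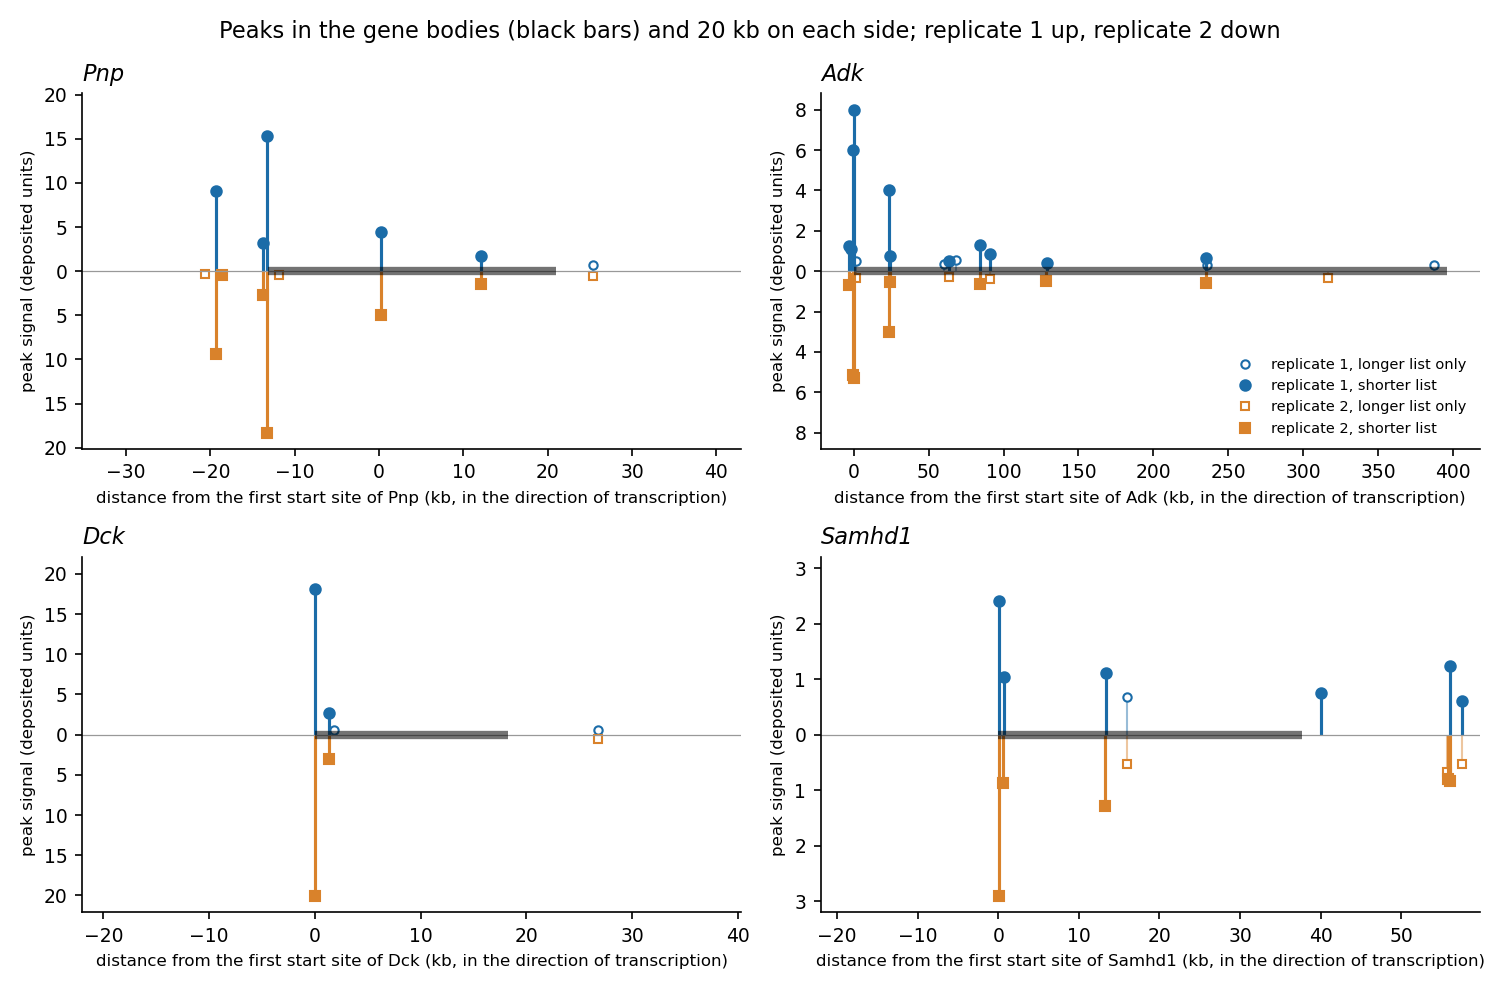
Peak signal in deposited units, replicate 1 upward and replicate 2 downward, against distance from the upstream start site in kb for Pnp, Adk, Dck and Samhd1, with gene bodies as black bars and open symbols for peaks of the longer list only. The scales differ between panels. Dck has 1 tall promoter peak (18.1 and 20.1), and the tallest peak in the Pnp window (15.3 and 18.3) lies 13.3 kb upstream of its starts.

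Footprints in the windows of the other 4 genes numbered 32 and 35 at Pnp, 48 and 45 at Adk, 19 and 16 at Dck, and 21 and 18 at Samhd1, in replicates 1 and 2. The windows differ in length. By density these were percentiles 79.4 and 79.2 of all genes at Pnp, and 38.7 and 37.9 at Adk. Dck stood at 69.7 and 62.0, and Samhd1 at 63.2 and 56.7. Over all 5 windows the libraries held 31 peaks each, of which 24 in replicate 1 (77.4%) and 25 in replicate 2 (80.6%) overlapped a peak of the other. All peaks of the libraries were shared to 79.4% and 80.7%. At 24 sites the shorter lists of both libraries overlapped, and the log2 ratio of replicate 2 over replicate 1, after subtracting its median over 37494 pairs, lay between -0.89 and 0.72. The central 95% of all pairs ran from -0.99 to 0.69, and 22 of the 24 sites lay within it. The 2 outside were both in the Ada window, the intron 1 peak at 0.70 and the Pkig peak at 37.6 kb at 0.72. The Ada promoter lay at -0.58, so that the promoter and the intron 1 peak of Ada moved in opposite directions between the libraries. The Dck promoter had 0.32 and the Pnp promoter 0.35.

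Of 48 other genes of purine, deoxynucleotide and adenosine metabolism, 40 had a promoter peak in both libraries (83.3%), 8 in neither and 0 in 1 library alone, against 53.6% of all genes. Their median signal was 4.47 where open, against 5.59 for all open genes. All 6 genes of de novo purine synthesis and all 7 nucleotidase genes were open, as were 7 of 8 genes each of purine interconversion, of other salvage and breakdown, and of deoxynucleoside kinases and dNTP supply. The highest means were at Ppat and Paics (13.9 ± 0.862), 2 de novo synthesis enzymes that share 1 peak between opposed starts, and at Adss (13.7 ± 0.210), which acts on the way from IMP to AMP. Each lay below the Dck mean of 19.1. Among the closest partners of the 5 genes, Hprt, which salvages hypoxanthine and guanine, had 3.33 ± 0.669, Aprt, which salvages adenine, had 10.1 ± 0.739, and Dguok, the mitochondrial deoxyguanosine kinase, had 13.6 ± 2.05, named here after their values were seen.

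Among genes of adenosine uptake and sensing, 4 of 7 nucleoside transporters (57.1%) and 2 of 4 adenosine receptors were open, shares near the 53.6% of all genes. The 8 genes without a promoter peak were Ampd1, the AMP deaminase of muscle, Xdh, which makes uric acid, Cda, a cytidine deaminase, the transporters Slc29a4, Slc28a1 and Slc28a3, and the adenosine receptors Adora1 and Adora3. In the longer lists Xdh had a peak in both libraries (0.546 in replicate 1 and 0.411 in replicate 2), Cda in replicate 1 (0.331) and Slc29a4 in replicate 2 (0.554). None of the 8 had a base with a q-value of at most 0.001 within 1 kb of a start.

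**Figure D4:**
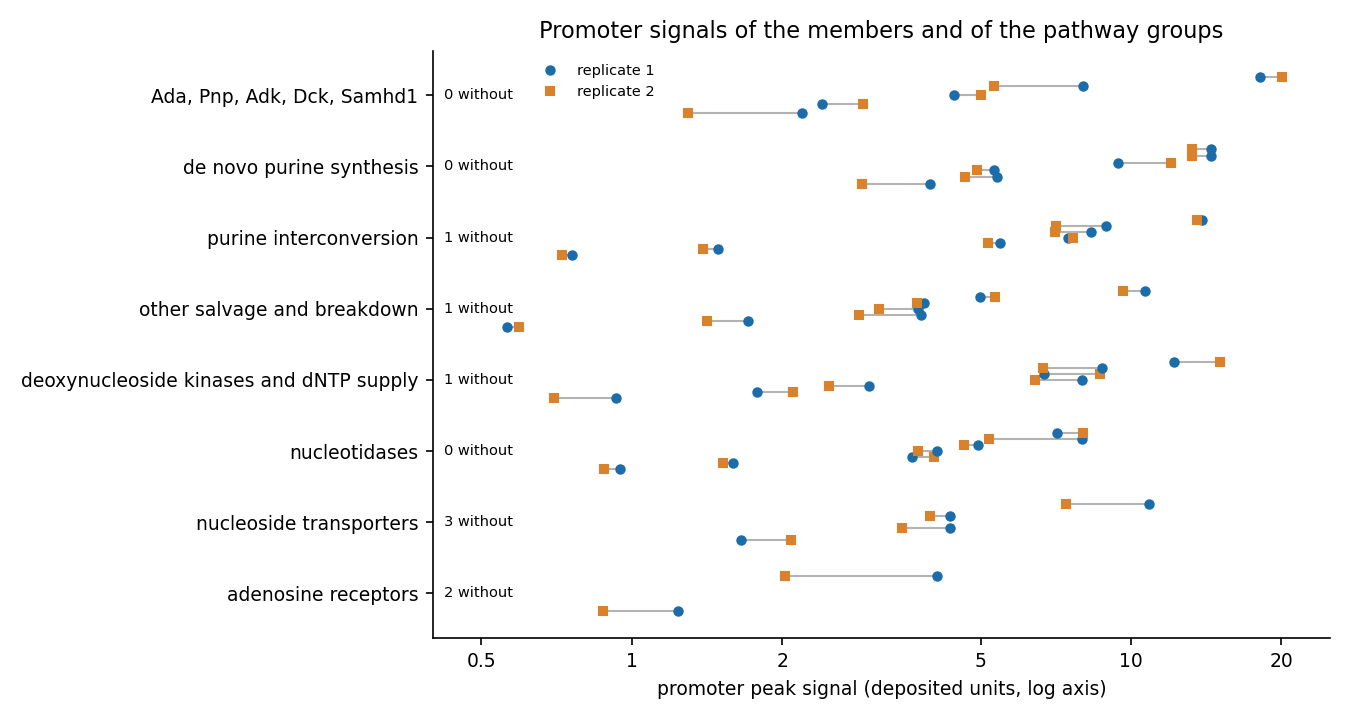
Promoter peak signal in deposited units on a log axis for the 5 salvage genes (top) and for 48 other genes by group, with replicate 1 as circles and replicate 2 as squares joined by a line for each gene, and the number of genes without a peak in both libraries at the left. Dck at 18.1 and 20.1 is the furthest to the right, and Ada at 2.19 and 1.30 is the lowest of the 5.

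The gene whose profile was nearest to that of Ada, by promoter signal, number of peaks in the window and gene length among 11752 genes with a promoter peak in both libraries, was Kcnip2. It had a mean promoter signal of 1.78, 8.5 peaks and a length of 24.2 kb, against 1.75, 8.5 peaks and 23.7 kb at Ada, a distance of 0.0290 SD.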

How the data were processed

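DNase I hypersensitivity was measured in 2 thymus libraries, grouped by their labels into 1 group, so no comparison between conditions and no test was made. Each peak has 1 signal value from the deposited lists, which the authors made per library on mm10 per the file notes, and its scale is not stated. All signal values were whole multiples of 1 step per library (0.00895 in replicate 1 and 0.00652 in replicate 2, tolerance 0.1 steps). The q-values per run of bases are the false discovery rates that the authors deposited, listed below 0.05. Footprints carry 1 constant, so only their positions were used. The caller, its thresholds, the aligner and the depth were not given in the sources used here. Reads of the hybrid mice may fit the mm10 build differently for each parent, and this was not tested.

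Promoters reached 1000 bp from the start sites of the GENCODE M21 basic set, and windows were gene bodies with 20 kb on each side. Overlap meant 1 bp. Sequence came from GRCm38, in which every peak fitted its chromosome, read with pysam 0.24.0. Runs of bases at or under a q-value limit were merged where they touched or overlapped. RefSeq promoters (GRCm38.p6) matched all 5 members. Python 3.11.15, numpy 2.4.6 and pandas 2.3.3 were used. The searches for overlaps, promoter peaks and consensus letters were tested on simulated data, and the other steps were not.

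Consensus letters were searched on both strands, beside all peaks of the same list cut to the same length about their centres: ETS as CCGGAAG or also AGGAAGT, RUNX as TGTGGTT, TCF7 and LEF1 as CTTTGAA or also CTTTGAT, MYB as TAACNG or also CAACNG, the E-box in a version CAGCTG, a version CAGGTG and a version CACGTG, the GATA factors' AGATAA, SP and KLF GGGCGG, the cyclic AMP response element TGACGTCA, NRF1 GCGCATGC, NF-Y CCAATC, YY1 AAGATGGC, AP-1 TGANTCA, E2F TTTCCCGC and TTTGGCGC, interferon GAAANNGAA, Ikaros TGGGAA, CTCF AGGGGGCGC, NF-kB GGGANTTCC and the TATA box, TATAAA. Matches of different families can overlap.

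The genes, the list of 48 pathway genes and the markers were chosen with earlier results of these data known. Named by rule were the 5 members, the 3 pathway genes with the highest mean promoter signal and all without a promoter peak, the 5 genes nearest to Ada in standardised log2 promoter signal, peak number and gene length, and neighbours whose promoters held a peak. Of the 5 nearest to Ada, the report gives the nearest, and the others are not reported here. Alternatives changed the promoter reach, start sites, flank, peak list, peak strength, overlap, footprint length, q-value limit and library.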

Additional observations from a re-analysis of the deposited data

How the results depend on the processing

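All 5 genes kept a promoter peak in both libraries under every alternative tried except the stronger 50% of peaks, where 4 did, without Ada. Of the 48 pathway genes 31 to 41 were open. The windows of the 5 genes held 31 peaks as the mean of the libraries, 18.5 without flanks and 15 among the stronger 50% of peaks. Footprints numbered 157 in all, 85.5 without flanks and 81 of at least 10 bp. The shared share of peaks was 79.0%, 64.5% with overlap of 50% of both peaks and 91.9% with partners in the longer list. Consensus matches in the 5 promoter peaks and the Ada intron peak, all as called in replicate 1, fell to 13 near footprints (extended by 5 bp), against 25 in all. With the peaks as called in replicate 2 there were 24 matches. The near-equal totals hide shifts by site. From the calls of replicate 1 to those of replicate 2, matches went from 6 to 2 at the Ada promoter and from 2 to 7 at Adk. They went from 6 to 5 at the Ada intron peak, and the 1 match at Samhd1 was lost. Dck kept 7 and Pnp kept 3.

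Leaving out 1 library at a time gave 5 genes each time, 40 pathway genes, 31 peaks, 153 to 161 footprints and 5253 to 5308 promoter bases with a q-value of at most 0.001. The main count asks for a promoter peak in both libraries, so leaving 1 out could not lower the gene counts. The Ada intron peak exceeded the promoter peak by 1.40 (log2) on average and by 0.76 to 2.04 in 1 library alone. With both promoter peaks summed it was 1.04, an alternative chosen after seeing the data, as were the others for this ratio. Of the 5 genes, Pnp alone had a scored promoter signal that moved by more than the spread. That signal was 16.8 with the start of the gene record. Ada did not keep a promoter peak in both libraries among the stronger peaks, so its signal was not scored there. With 1 library left out, the mean could not move by more than the SD, so those settings could not show a shift. No paired analysis was possible because both libraries belong to 1 group. Depth and mappability limit weak peaks, and neither is known here.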
